A study of Homo sapiens with 9 samples.

Results

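The 7 genes described here encode the nuclear receptors and basic leucine zipper (bZIP) factors that connect the core circadian clock to its output genes: NR1D1 (REV-ERB alpha), NR1D2 (REV-ERB beta), RORA (ROR alpha), DBP, TEF, HLF and NFIL3. They were taken by name from the table of read counts, which held 27671 genes, and all 7 were found. Expression was high enough for 15551 genes to be tested, and 6 of the 7 were among them, HLF being the gene that was not. RNA was sequenced from A498, an established human cell line derived from a clear cell renal cell carcinoma (ccRCC). Cells carried 1 of 3 lentiviral short hairpin RNAs (shRNA) in a pLKO.1 vector and were kept under puromycin: shControl (genotype WT), shBMAL1 (BMAL1 knockdown) or shARNT (ARNT knockdown). Each group had 3 libraries, which gave 9 in all. All groups therefore shared the vector, the selection and the growth medium, and each depletion rested on a single hairpin, so that an effect of the depleted gene and an effect of that hairpin cannot be told apart. The labels call the libraries biological replicates without saying how the cultures were separated, so p-values measure the spread between these libraries. Neither a synchronization step nor a time of collection was given for these cultures, so a change in level and a change in clock phase cannot be told apart.

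BMAL1 (gene ARNTL) pairs with CLOCK and activates genes that carry an E-box. Among those genes are REV-ERB and the PAR-bZIP genes DBP, TEF and HLF. The REV-ERB receptors repress, and the ROR receptors activate, genes with a ROR response element (RORE), a class that includes ARNTL itself and NFIL3. The PAR-bZIP factors activate genes with a D-box, and NFIL3 (also called E4BP4) represses through the same element. ARNT is the partner of the hypoxia-inducible factors, whose HIF2 alpha subunit (gene EPAS1) is highly active in ccRCC.

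To show which of these elements lie near the start sites, 300-base promoter windows of RefSeq (250 bases before the start site and 50 after it, built on GRCh38.p14) were searched on both strands. The 7 genes had 11 windows, and each matched GRCh37 exactly once, so that positions are given on GRCh37. The letters searched were CACGTG for the E-box, CACGTT for an E-box variant, AGGTCA for the RORE core, TTATGTAA or TTACGTAA for the D-box, and ACGTG or GCGTG for the core of the hypoxia response element. The 5 windows that held an E-box, an E-box variant, a RORE core or a D-box are printed 5′ to 3′ on the gene's own strand, up to 30 bases past the start site, with those matches in capitals.

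NR1D1 window 1: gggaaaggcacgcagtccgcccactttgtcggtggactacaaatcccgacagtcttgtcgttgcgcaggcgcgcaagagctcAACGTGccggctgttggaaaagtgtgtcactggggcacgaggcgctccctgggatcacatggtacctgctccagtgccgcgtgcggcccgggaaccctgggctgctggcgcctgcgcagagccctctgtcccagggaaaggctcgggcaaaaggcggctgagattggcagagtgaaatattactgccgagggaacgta
NR1D2 window 2: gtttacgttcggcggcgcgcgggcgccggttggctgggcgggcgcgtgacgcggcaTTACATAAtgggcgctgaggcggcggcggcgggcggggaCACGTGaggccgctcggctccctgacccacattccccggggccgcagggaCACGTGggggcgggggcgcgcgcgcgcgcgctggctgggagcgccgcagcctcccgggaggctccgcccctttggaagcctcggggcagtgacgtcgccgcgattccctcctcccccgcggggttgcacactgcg
TEF window 1: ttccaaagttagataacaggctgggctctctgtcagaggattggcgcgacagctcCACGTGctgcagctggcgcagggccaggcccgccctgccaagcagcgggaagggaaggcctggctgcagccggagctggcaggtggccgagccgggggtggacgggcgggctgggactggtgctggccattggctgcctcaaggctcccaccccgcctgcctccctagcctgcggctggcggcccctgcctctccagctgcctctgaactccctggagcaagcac
TEF window 2: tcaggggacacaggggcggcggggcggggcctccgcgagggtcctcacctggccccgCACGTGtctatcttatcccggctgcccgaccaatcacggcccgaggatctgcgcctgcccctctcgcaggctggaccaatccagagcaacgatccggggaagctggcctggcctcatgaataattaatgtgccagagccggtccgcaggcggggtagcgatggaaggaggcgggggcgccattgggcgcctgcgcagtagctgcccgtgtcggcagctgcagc
NFIL3 window 2: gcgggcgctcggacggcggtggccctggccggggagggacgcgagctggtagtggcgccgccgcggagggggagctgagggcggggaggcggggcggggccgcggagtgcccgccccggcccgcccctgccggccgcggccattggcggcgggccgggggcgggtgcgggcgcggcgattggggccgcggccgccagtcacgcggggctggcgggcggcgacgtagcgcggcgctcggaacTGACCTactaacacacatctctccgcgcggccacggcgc

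The NR1D1 stretch is chr17:38256813-38257092 (minus strand), and its capitals are the E-box variant read on the opposite strand, at positions -168 to -163 relative to the start site. NR1D2 window 2 is chr3:23987362-23987641 (plus strand). It held a D-box, read on the opposite strand, at -194 to -187, and E-boxes at -155 to -150 and at -105 to -100. The TEF windows are chr22:41763209-41763488 and chr22:41777696-41777975 (plus strand), each with an E-box, at -195 to -190 and at -193 to -188 from its own start. NFIL3 window 2 is chr9:94186085-94186364 (minus strand), with the RORE core read on the opposite strand at -9 to -4.

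Over 35116 RefSeq windows of the same length, CACGTG was found in 7.26%, CACGTT in 5.34%, AGGTCA in 13.8%, TTATGTAA in 0.886% and TTACGTAA in 0.125%. ACGTG was found in 21.4% and GCGTG in 36.5%. The hypoxia core ACGTG lies inside CACGTG on both strands and inside the reverse of CACGTT, so every E-box above is also a match to it. The single RORA window, the first NR1D2 window, both HLF windows, the DBP window and the first NFIL3 window held no E-box, E-box variant, RORE core or D-box. The start site of the RORA window, at chr15:60919729, lies inside the gene. The annotated upstream end of RORA, at chr15:61521501 on the minus strand, was not searched. A match is a description of the letters and no record of binding.

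**Figure D1:**
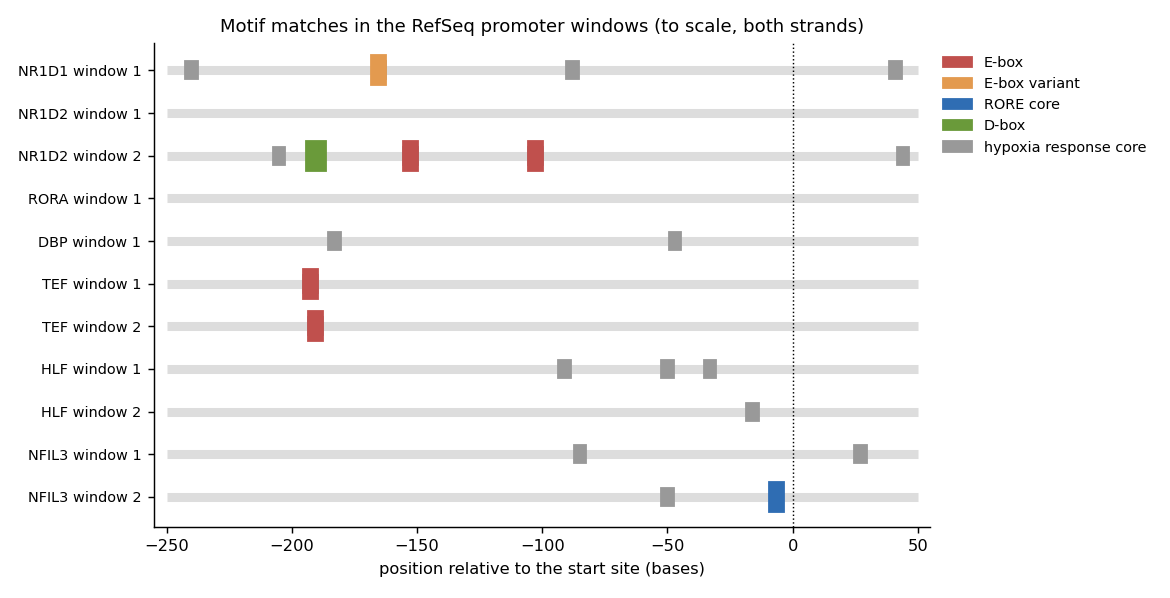
Motif matches in the 11 RefSeq promoter windows of the 7 genes, drawn to scale against the start site (x axis, bases; dotted line, start site; grey bar, window). Coloured blocks are matches on either strand, and the hypoxia response cores that lie inside an E-box are hidden behind it. E-boxes lie in NR1D2 window 2 and in both TEF windows, the RORE core in NFIL3 window 2, and the RORA window and NR1D2 window 1 are empty.

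Total counts ran from 35269870 to 36099096 per library. The scaling factors of edgeR's trimmed mean of M-values (TMM) lay between 0.932 and 0.944 for shControl, between 0.961 and 0.971 for shBMAL1 and between 1.10 and 1.11 for shARNT, and levels are given as CPM on that scale, read counts divided by the scaled library total. ARNTL was counted 556, 524 and 536 times in shControl and 185, 191 and 140 times in shBMAL1 (log2 fold change -1.70, SE 0.101, adjusted p = 1.94e-11). ARNT was counted 1603, 1667 and 1738 times in shControl and 369, 361 and 395 times in shARNT (-2.41, SE 0.0667, adjusted p = 1.35e-17). Both targeted genes were thus lower in the libraries labelled as their knockdown. Each hairpin's libraries also differed in the other genes of this group: ARNTL was higher in shARNT (0.55, adjusted p = 8.29e-06), ARNT was lower in shBMAL1 (-0.65, adjusted p = 1.55e-08), and EPAS1 fell in shBMAL1 (-0.57, adjusted p = 1.55e-08) and in shARNT (-2.22, adjusted p = 2.95e-18). The summed level of 8 renal epithelial and ccRCC line markers ranged over 7980 to 8028 CPM for shControl, over 5902 to 6376 CPM for shBMAL1 and over 2238 to 2402 CPM for shARNT. VIM (vimentin) made up most of that fall, at 5974, 4309 and 812 CPM on average in the same order. Other markers of the list went other ways: PAX8 was called higher in shBMAL1 (0.18) and in shARNT (1.48), KRT19 was higher in shBMAL1 (0.97) and lower in shARNT (-1.49), and KRT18 was lower in shBMAL1 (-0.26) and did not pass in shARNT (-0.0070, adjusted p = 0.871). Summed markers of endothelium stayed at or below 0.412 CPM and those of leukocytes at or below 0.882 CPM, with CD3E at 0 in every library. The fibroblast and smooth muscle list, in which LUM was at 0 in every library, ran from 17.8 to 59.3 CPM and was lowest in shARNT. ACTA2 made up nearly all of that sum, at 57.6, 54.0 and 19.6 CPM on average in shControl, shBMAL1 and shARNT. The part of these marker shifts in the results below was not tested.

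A gene was called changed at an adjusted p under 0.1 in edgeR's quasi-likelihood test with Benjamini-Hochberg adjustment over all genes tested. In shBMAL1 against shControl, 63.4% of tested genes were called (31.9% higher and 31.5% lower), and of the 6 tested clock output genes 2 rose, 2 fell and 2 did not pass. In shARNT against shControl, 81.8% of tested genes were called (40.5% higher and 41.3% lower), and 3 of the 6 rose, 2 fell and 1 did not pass. In shARNT directly against shBMAL1, 81.2% were called (40.1% higher and 41.1% lower), and 4 of the 6 were higher and 2 lower. The median absolute log2 fold change of the 6 genes was 0.89 in shBMAL1 against 0.32 over all tested genes, 0.94 in shARNT against 0.66, and 1.90 in the direct comparison against 0.64. Both depletions were compared with the same shControl libraries, so these comparisons are not independent. In bulk RNA, fewer cells expressing a gene and less of its RNA per cell cannot be told apart.

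REV-ERB alpha and REV-ERB beta are close relatives that bind the same element, and their RNAs fell together in shBMAL1 and parted in shARNT. NR1D1 (ENSG00000126368, chr17:38249046-38256842, GRCh37) stood at 19.6, 18.1 and 20.9 CPM in the shControl libraries. In shBMAL1 it stood at 5.32, 4.35 and 4.91 CPM, and in shARNT at 18.4, 18.1 and 16.6 CPM. All 3 shBMAL1 libraries lay below every other library, and the shARNT and shControl libraries overlapped. The mean fell from 19.5 ± 1.39 to 4.86 ± 0.486 CPM (SD, n = 3), to 0.249 of the shControl level, with a 95% interval of the log2 fold change from -2.21 to -1.80. Of all tested genes, 98.1% had a smaller absolute log2 fold change in that comparison. In shARNT the mean was 17.7 ± 0.954 CPM, and the log2 difference of -0.14 (95% interval -0.32 to 0.03, adjusted p = 0.125 by edgeR) did not pass. This call moved with the processing: without shControl library 2 the value was -0.20 with adjusted p = 0.063, a fit on those 6 libraries alone gave -0.15 with adjusted p = 0.0784, and halved counts gave -0.15 with adjusted p = 0.0907. With scaling by library size alone it turned to 0.09 with adjusted p = 0.312.

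NR1D2 (ENSG00000174738, chr3:23986777-24022108), whose second promoter window carries the pair of E-boxes shown above, stood at 7.18, 6.23 and 6.57 CPM in shControl. It stood at 2.28, 2.82 and 2.97 CPM in shBMAL1 and at 18.1, 20.9 and 20.8 CPM in shARNT. The 3 groups did not overlap, with shBMAL1 lowest and shARNT highest. In shBMAL1 it fell to 0.404 of the shControl level (log2 fold change -1.31, SE 0.126, adjusted p = 2.57e-08 by edgeR). In shARNT it rose 2.99-fold (1.58, SE 0.103, adjusted p = 1.65e-11). Between the depletions the level differed 7.40-fold (2.89, 95% interval 2.65 to 3.13), and 96.6% of tested genes had a smaller absolute difference there. The corresponding NR1D1 difference was 3.64-fold (1.86, 95% interval 1.66 to 2.06).

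The ratio of NR1D2 to NR1D1 counts within a library does not depend on how libraries are scaled. It was 0.367, 0.343 and 0.314 in shControl, 0.429, 0.647 and 0.605 in shBMAL1 and 0.984, 1.16 and 1.25 in shARNT. Each shARNT library lay above each shBMAL1 library, and each of those above every shControl library, so the balance moved towards NR1D2 in both depletions. Those are read counts and not per length. Per kilobase of the canonical transcript, NR1D1 remained the higher of the pair in every group: 7.43 ± 0.529 against 1.27 ± 0.0922 CPM per kb in shControl, 1.85 ± 0.185 against 0.514 ± 0.0691 in shBMAL1, and 6.73 ± 0.363 against 3.81 ± 0.300 in shARNT.

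The exons of NR1D1 share 473 bases with exons of THRA, the thyroid hormone receptor alpha gene, on the opposite strand, and the use of strand in the counting is not given in the sources used here. Reads from the shared bases could therefore have been counted for either gene. THRA was counted 1388, 1400 and 1431 times in shControl, 1629, 1646 and 1709 times in shBMAL1 and 2004, 2010 and 2048 times in shARNT. It was called higher with either hairpin, by 0.19 with shBMAL1 (adjusted p = 0.00274 by edgeR) and by 0.26 with shARNT (adjusted p = 7.52e-05). NR1D1 was called lower in shBMAL1. Its shARNT value of -0.14 did not pass and changed sign with scaling by library size alone. How far THRA reads entered the NR1D1 counts was not tested. NR1D2 shares no exonic base with NKIRAS1, the gene on its other strand.

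**Figure D2:**
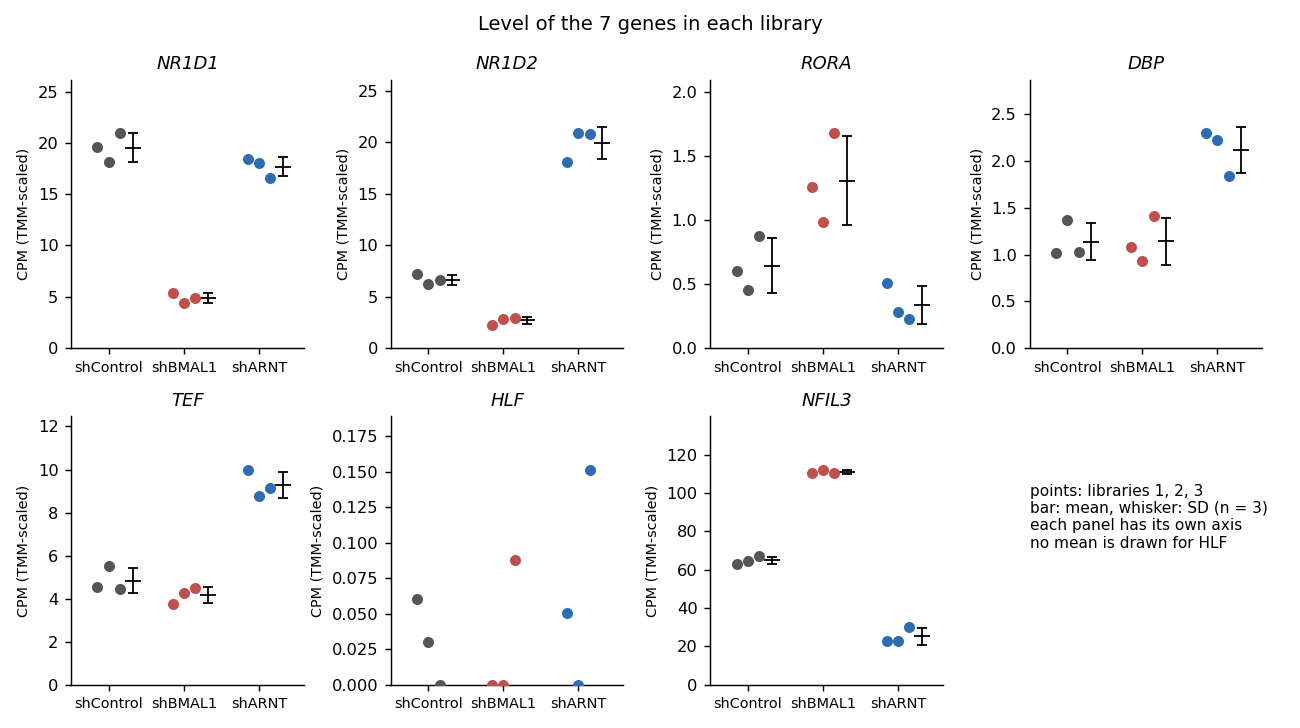
Level of each of the 7 genes in every library (y axis, CPM after TMM scaling, each panel on its own axis from 0; x axis, group). Points are libraries 1 to 3 and the bar with whiskers is mean and SD (n = 3), left out for HLF, which was at or near 0. NR1D1 is lowest in shBMAL1, NR1D2 drops in shBMAL1 and climbs in shARNT, and NFIL3 does the reverse of NR1D2.

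RORA, the activator that competes with the REV-ERB receptors at the RORE, was scarce. RORA (ENSG00000069667, chr15:60780483-61521501) was counted 20, 15 and 29 times in shControl, 43, 34 and 57 times in shBMAL1 and 20, 11 and 9 times in shARNT. All 3 shBMAL1 libraries lay above the rest, whereas shARNT and shControl overlapped. It rose from 0.645 ± 0.215 to 1.31 ± 0.347 CPM in shBMAL1 (log2 fold change 1.01, 95% interval 0.29 to 1.74, adjusted p = 0.0165 by edgeR). In shARNT it stood at 0.337 ± 0.148 CPM, called lower at -0.93 (95% interval -1.77 to -0.09, adjusted p = 0.0403). That call was lost without shControl library 3 (-0.65, adjusted p = 0.199), without shARNT library 2 (-0.81, adjusted p = 0.112), without shARNT library 3 (-0.71, adjusted p = 0.142) and with scaling by library size alone (-0.69, adjusted p = 0.118). The direct comparison gave a level in shARNT of 0.260 of that in shBMAL1 (-1.95, SE 0.369, adjusted p = 7.62e-05), with no overlap between those groups.

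Exons of the antisense transcript RORA-AS1 share 564 bases with those of RORA. RORA-AS1 was not found by name among the counted genes, so at these low counts the RORA value may include antisense reads. RORB, another ROR gene, was also scarce. It was counted 36, 24 and 60 times in shControl, 34, 20 and 25 times in shBMAL1 and 8, 16 and 10 times in shARNT. It was called lower in shARNT (-2.07, adjusted p = 0.000103), and the shBMAL1 value of -0.65 did not pass (adjusted p = 0.13), although it did without shControl library 2 (-0.91, adjusted p = 0.0441) and without shBMAL1 library 1 (-0.87, adjusted p = 0.0874).

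Of the PAR-bZIP activators, TEF and DBP rose in shARNT, and HLF was too low to test. TEF (ENSG00000167074, chr22:41763337-41795330), thyrotroph embryonic factor, was the most abundant of them. It stood at 4.54, 5.50 and 4.45 CPM in shControl, 3.74, 4.27 and 4.50 CPM in shBMAL1 and 9.97, 8.77 and 9.12 CPM in shARNT. The shARNT libraries were all above the others, and shBMAL1 overlapped shControl. In shARNT TEF rose 1.92-fold (0.94, SE 0.121, adjusted p = 5.5e-07 by edgeR). In shBMAL1 it stood at -0.21 (95% interval -0.48 to 0.06, adjusted p = 0.178). In the direct comparison TEF was 2.23-fold higher in shARNT (1.15, SE 0.123, adjusted p = 3.58e-08).

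DBP, the D-box binding protein and in most tissues among the clock outputs of largest amplitude, was low in A498 cells. DBP (ENSG00000105516, chr19:49133287-49140636) was counted 34, 45 and 34 times in shControl, 37, 32 and 48 times in shBMAL1 and 91, 88 and 73 times in shARNT. Again the shARNT libraries stood above all others and shBMAL1 overlapped shControl. In shARNT it rose 1.86-fold (0.89, SE 0.232, adjusted p = 0.00161 by edgeR). In shBMAL1 the log2 difference was 0.00, with a 95% interval of -0.52 to 0.53 (adjusted p = 0.996). In the direct comparison DBP was 1.86-fold higher in shARNT (0.89, SE 0.231, adjusted p = 0.0016). DBP exons share 661 bases with exons of SPHK2, a sphingosine kinase gene on the opposite strand. SPHK2 was counted 456, 529 and 502 times in shControl, 604, 689 and 775 times in shBMAL1 and 914, 913 and 905 times in shARNT, and was called higher in both (0.43, adjusted p = 0.000335, and 0.62, adjusted p = 1.9e-06). How far SPHK2 reads entered the DBP counts was not tested.

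HLF (ENSG00000108924, chr17:53342321-53402548), hepatic leukemia factor, was barely detected. Its counts were 2, 1 and 0 in shControl, 0, 0 and 3 in shBMAL1 and 2, 0 and 6 in shARNT. A count of 0 allows up to 3 counts, or 0.0831 to 0.0851 CPM of the library total, for counting error alone. No group stood apart at this depth, and HLF was not tested.

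NFIL3, the repressor that occupies the D-box in place of the PAR-bZIP factors, was the most abundant of the 7 in every group. NFIL3 (ENSG00000165030, chr9:94171327-94186114) stood at 63.0, 64.5 and 67.0 CPM in shControl. It stood at 110.3, 111.9 and 110.3 CPM in shBMAL1 and at 22.7, 22.9 and 30.3 CPM in shARNT. The groups did not overlap, and the order was the reverse of that of NR1D2. In shBMAL1 NFIL3 rose 1.71-fold (0.77, SE 0.0722, adjusted p = 1.63e-08 by edgeR). In shARNT it fell to 0.390 of the shControl level (-1.36, SE 0.0775, adjusted p = 1.84e-12), and in the direct comparison it stood at 0.228 of the shBMAL1 level (-2.13, SE 0.0769, adjusted p = 1.05e-15). No annotated exon overlaps NFIL3 on either strand.

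**Figure D3:**
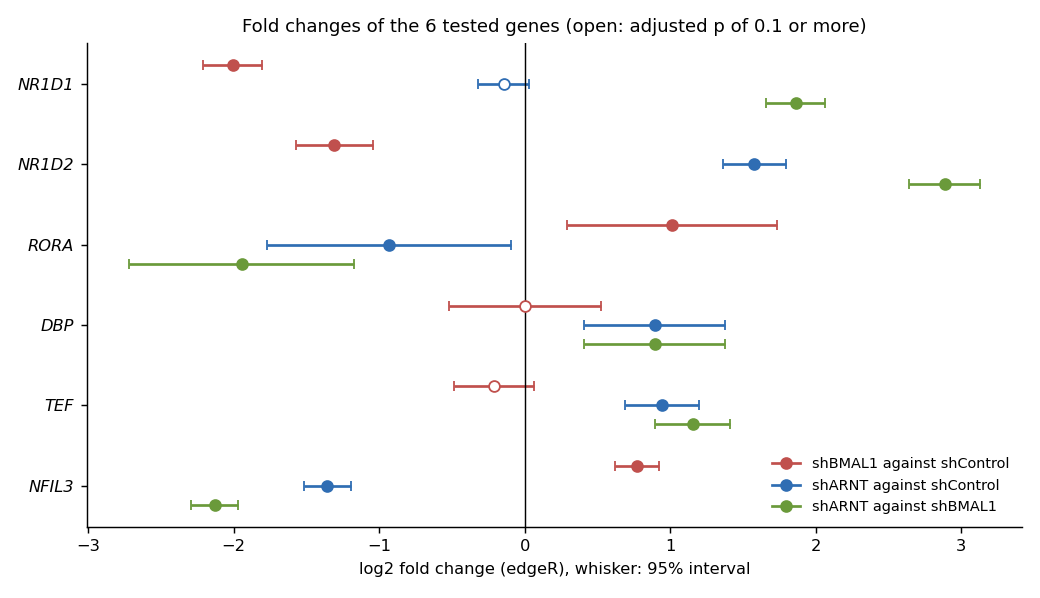
Log2 fold changes of the 6 tested genes (x axis; edgeR) in shBMAL1 and shARNT against shControl and in shARNT against shBMAL1, with 95% intervals as whiskers; open points have an adjusted p of 0.1 or more. NR1D2, RORA and NFIL3 lie on opposite sides of 0 in the 2 depletions, while TEF and DBP depart from 0 in shARNT and not in shBMAL1.

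The D-box activators and their repressor thus moved apart in shARNT, and this too can be read within a library. The ratio of TEF to NFIL3 counts was 0.0746 ± 0.00968 in shControl, 0.0376 ± 0.00345 in shBMAL1 and 0.375 ± 0.0693 in shARNT (SD, n = 3). The ratio of DBP to NFIL3 counts was 0.0176 ± 0.00315 in shControl, 0.0103 ± 0.00229 in shBMAL1 and 0.0864 ± 0.0223 in shARNT. For both ratios the lowest shARNT library lay above the highest shControl library, and the highest shBMAL1 library lay below the lowest shControl library. For the receptors of the RORE, the ratio of RORA to NR1D1 counts was 0.0326 ± 0.00858 in shControl, 0.268 ± 0.0636 in shBMAL1 and 0.0188 ± 0.00750 in shARNT. All shBMAL1 libraries lay above the rest there, and shARNT overlapped shControl. No test was run on the ratios.

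**Figure D4:**
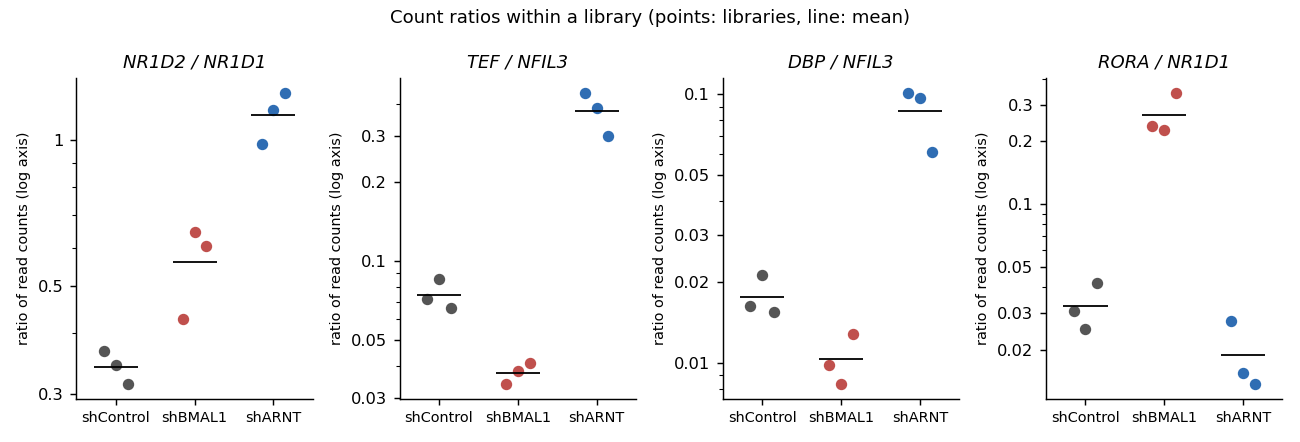
Ratios of read counts within each library (y axis, log scale; x axis, group; points, libraries; line, mean of 3). NR1D2 to NR1D1 climbs from shControl through shBMAL1 to shARNT; TEF and DBP to NFIL3 are lowest in shBMAL1 and highest in shARNT; RORA to NR1D1 is highest in shBMAL1.

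Per kilobase of canonical transcript the shControl order was NFIL3 (31.5 ± 0.984 CPM per kb), NR1D1 (7.43 ± 0.529), NR1D2 (1.27 ± 0.0922), TEF (1.10 ± 0.133), DBP (0.525 ± 0.0909), RORA (0.0596 ± 0.0198) and HLF (0.00527 ± 0.00525). NR1D2 and TEF, neighbours in that order, lay within the sum of their SDs. In shBMAL1 the order became NFIL3 (53.9 ± 0.454), NR1D1 (1.85 ± 0.185), TEF (0.952 ± 0.0883), DBP (0.526 ± 0.114) and NR1D2 (0.514 ± 0.0691), the last pair within their SDs, followed by RORA (0.121 ± 0.0321) and HLF (0.00514 ± 0.00890). In shARNT the shControl order held, from NFIL3 (12.3 ± 2.10), NR1D1 and NR1D2 to TEF (2.12 ± 0.141), DBP (0.977 ± 0.114), RORA (0.0311 ± 0.0137) and HLF (0.0118 ± 0.0135), the last pair within the sum of their SDs.

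The REV-ERB receptors repress by recruiting corepressor complexes such as that of NCOR1 with HDAC3, and are degraded after FBXW7 or HUWE1 marks them. Of 9 genes for corepressor subunits and REV-ERB turnover, all tested, 6 rose and 1 fell in shBMAL1, and 6 rose and 2 fell in shARNT, the 2 falls not passing with scaling by library size alone. The median log2 fold change was 0.25 in shBMAL1 and 0.27 in shARNT, against 0.00 and -0.01 over all tested genes. Of all tested genes 63.4% and 81.8% were called in these comparisons, and 81.2% in the direct comparison. NCOR1 and GPS2 rose by small steps in both, NCOR1 by 0.25 (adjusted p = 5.22e-05 by edgeR) and 0.23 (9.08e-05) and GPS2 by 0.34 (1.69e-05) and 0.47 (9.13e-08). HDAC3 and TBL1XR1 were the 2 falls in shARNT (-0.25, adjusted p = 0.000603 by edgeR, and -0.33, adjusted p = 1.62e-05). In shBMAL1 both were called higher (0.12, adjusted p = 0.0806, and 0.26, adjusted p = 0.00036). FBXW7, a ubiquitin ligase subunit, rose in both, from 6.84 to 8.95 CPM in shBMAL1 (0.39, adjusted p = 0.00516 by edgeR) and to 17.1 CPM in shARNT (1.32, adjusted p = 3.73e-10). GSK3B, a kinase that stabilizes NR1D1 protein, rose in shARNT (0.66, adjusted p = 4.9e-09) and did not pass in shBMAL1 (-0.08, adjusted p = 0.29). In the direct comparison 5 of the 9 were higher in shARNT and 3 lower, TBL1XR1 among the lower (-0.60, adjusted p = 4.1e-09).

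Other E-box genes of the core clock gave no single direction. Of 8 such genes (PER, CRY, CIART and BHLHE40/41), 7 were tested. In shBMAL1 1 rose and 3 fell, with a median of -0.17, and in shARNT 1 rose and 4 fell, with a median of -0.49. The called share of all tested genes was 63.4% in shBMAL1, 81.8% in shARNT and 81.2% in the direct comparison. CRY1, a repressor that also carries a RORE, rose in both, from 19.1 to 40.2 CPM in shBMAL1 (1.08, adjusted p = 4.55e-10 by edgeR) and to 33.1 CPM in shARNT (0.80, adjusted p = 1.3e-08). PER3 fell in both (-1.26, adjusted p = 4.75e-07, and -0.49, adjusted p = 0.00325), the shARNT call being lost with scaling by library size alone (-0.25, adjusted p = 0.104). BHLHE40 (DEC1), which is also induced by hypoxia, fell from 423 to 283 CPM in shBMAL1 (-0.58, adjusted p = 5.86e-08) and to 128 CPM in shARNT (-1.72, adjusted p = 8.33e-16). CRY2 fell in shARNT (-0.70, adjusted p = 8.14e-07) and did not pass in shBMAL1 (0.08, adjusted p = 0.491). In the direct comparison 2 were higher in shARNT and 3 lower, or 3 and 2 with scaling by library size alone.

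Genes known to be driven through the RORE, the element that NR1D1, NR1D2 and RORA share, numbered 10 on the list used, NFIL3 and CRY1 among them, and 7 were tested. In shBMAL1 5 rose and 2 fell, and 1 of the 2 was ARNTL, the hairpin's own target. The median of 0.77 was the value of NFIL3 itself, which is also 1 of the 5 rises. In shARNT 4 rose and 3 fell, NFIL3 among the falls, with a median of 0.55, the value of ARNTL. In the direct comparison 2 were higher in shARNT and 5 lower, with a median of -0.86. Among all tested genes, 63.4% were called in shBMAL1, 81.8% in shARNT and 81.2% in the direct comparison. NPAS2, a relative of CLOCK that also pairs with BMAL1, rose from 33.1 to 63.9 CPM in shBMAL1 (0.95, SE 0.0560, adjusted p = 1.59e-11 by edgeR). In shARNT NPAS2 fell to 23.0 CPM (-0.53, SE 0.0586, adjusted p = 7.14e-08). NFIL3 and RORA took the same directions, though the RORA call in shARNT was lost in some settings, as given above. By contrast, CRY1, CLOCK (0.28 in shBMAL1 and 0.67 in shARNT) and the scarce PPARGC1A (1.96 and 1.10) were called higher in both. FABP7, a fatty acid binding protein, was counted 91, 79 and 115 times in shControl and 73, 67 and 56 times in shBMAL1, where it was called lower (-0.59, adjusted p = 0.0278), a call lost without shControl library 3 (-0.43, adjusted p = 0.161). In shARNT it was counted 0, 1 and 1 times, a ratio to shControl of 0.00691 with an exact 95% counting interval of 0.000832 to 0.0252.

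Genes reported as D-box or PAR-bZIP targets, the output of TEF, DBP, HLF and NFIL3, numbered 17, among them PER1, PER2 and PER3 of the list above, and 13 were tested. In shBMAL1 4 rose and 6 fell (median -0.11). In shARNT 4 rose and 6 fell (median -0.10), or 7 rose and 5 fell with scaling by library size alone. In the direct comparison 8 were higher in shARNT and 4 lower (median 0.33). Over all tested genes 63.4%, 81.8% and 81.2% were called in the same order, with higher and lower shares nearly equal. ALAS1, the first enzyme of heme synthesis, rose from 41.1 to 56.9 CPM in shBMAL1 (0.47, adjusted p = 1.63e-07 by edgeR) and to 87.7 CPM in shARNT (1.09, adjusted p = 5.97e-14). PDXK, pyridoxal kinase, rose by 0.16 in shBMAL1 and by 1.12 in shARNT, from 83.6 to 182 CPM. POR, the electron donor of the cytochromes P450, rose in shARNT (0.68, adjusted p = 3.63e-12). In shBMAL1 POR was called lower at -0.11 (adjusted p = 0.0325), a call lost with scaling by library size alone (-0.06, adjusted p = 0.213), without shControl library 3 (-0.07, adjusted p = 0.171) and without shBMAL1 library 1 (-0.08, adjusted p = 0.126). CES2, a carboxylesterase, went the other way, from 789 CPM up by 0.43 in shBMAL1 (adjusted p = 1.24e-08) and down to 289 CPM in shARNT (-1.45, adjusted p = 1.82e-17). ABCB1, the P-glycoprotein drug pump, fell from 103 to 46.5 CPM in shBMAL1 (-1.14, adjusted p = 3.15e-11). In shARNT ABCB1 stood at 107 CPM (0.06, adjusted p = 0.452), and it was called higher there without shControl library 1 (0.13, adjusted p = 0.0735) and with scaling by library size alone (0.29, adjusted p = 0.000623), and turned to -0.01 without shControl library 3 (adjusted p = 0.886).

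The related bZIP factors of the C/EBP and ATF groups, which can also bind D-box-like sites, numbered 7, all tested. Of these, 3 rose and 3 fell in shBMAL1, 4 rose and 2 fell in shARNT, and 5 were higher and 1 lower in the direct comparison. For comparison, 63.4%, 81.8% and 81.2% of all tested genes were called in the same order. CEBPB rose from 49.6 to 60.0 CPM in shBMAL1 (0.27, adjusted p = 0.00234 by edgeR) and to 209 CPM in shARNT (2.07, adjusted p = 2.7e-16). CEBPD fell in both, from 37.2 to 27.9 CPM in shBMAL1 (-0.42, adjusted p = 0.000843), where NFIL3 rose, and to 14.0 CPM in shARNT (-1.41, adjusted p = 5.61e-11), where NFIL3 fell. ATF4, the integrated stress response factor, rose in both (0.23 and 0.50), and so did its target DDIT3 (0.47 and 0.70), while ATF5 fell in both (-0.95 and -0.50). CEBPA was lower in shBMAL1 (-0.88, adjusted p = 0.0023) and higher in shARNT (1.51, adjusted p = 2.9e-07), the order NR1D2 also showed.

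**Figure D5:**
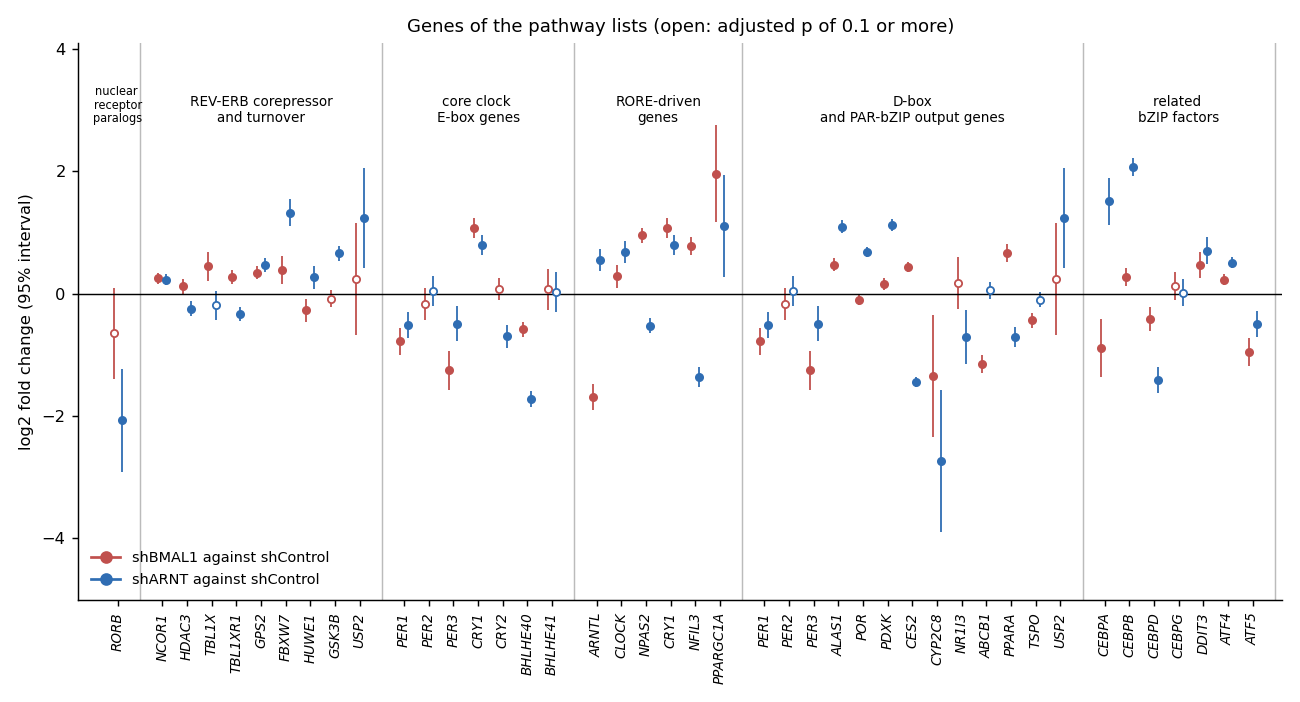
Log2 fold changes of the tested genes of the 6 pathway lists (y axis, with 95% intervals; x axis, genes by list) in shBMAL1 and shARNT against shControl; open points have an adjusted p of 0.1 or more, and FABP7 is left out because shARNT held 3 counts or fewer of it. Genes on 2 lists are drawn in both, and each list of more than 1 gene holds both rises and falls in both comparisons.

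For the 5 clock output genes with an absolute log2 fold change of at least 1 in some comparison, which leaves out DBP, the genes whose levels ran closest were found by the root mean square (RMS) difference of log2 CPM over the 9 libraries, each gene centred on its own mean, among 12350 genes. For NR1D1 they were SERPINH1 (0.152), NCR3LG1 (0.156) and ATP8B2 (0.166), against a median of 0.974 over all genes compared. SERPINH1 had 522 CPM in shControl, 138 in shBMAL1 and 559 in shARNT. For NR1D2 they were RPIA (0.177), WNT5A (0.180) and AJUBA (0.199), against a median of 1.20. RPIA had 8.10 CPM in shControl, 4.26 in shBMAL1 and 30.2 in shARNT. For NFIL3 they were ATG10 (0.0829), BCL9 (0.106) and FAH (0.106), and for TEF PAGR1 (0.0878), EXOSC6 (0.0882) and ANAPC2 (0.0885). For RORA, whose low counts add noise, the nearest were CATSPER1 (0.262), INSIG1 (0.283) and LINC00958 (0.296). None of the nearest genes was itself on a list above.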

How the data were processed

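The authors deposited one table of read counts per gene for the 9 A498 libraries; its values, as the authors deposited them, were treated as estimated counts without normalization, with 0.05 in place of 0. The study's methods name SeqMan NGen 17 with GRCh37 and ArrayStar 17, the submitters' processing notes name STAR, hg38 and DESeq2, and the use of strand is not given in the sources used here. Here 0.05 was set to 0, counts were rounded, and 45 names on more than 1 row were summed. edgeR 4.0.16 (R 4.3.3) was fitted on all 9 libraries by group (filterByExpr, TMM, quasi-likelihood test, Benjamini-Hochberg), and was tested on simulated counts. In that simulation only a small set of genes changed, whereas most genes were called here, so it does not test the scaling of these libraries. Intervals of log2 fold changes used 19.32 degrees of freedom. DESeq2 1.42.0, other scalings, no filter, halved counts, a replicate block and leaving out each library were alternatives. Genes were named by rule: the 7 genes, ARNTL, ARNT and EPAS1, at most the 3 smallest p of each list and comparison, and the 3 nearest profiles. THRA, SPHK2, NKIRAS1, the values of HDAC3, CLOCK and PPARGC1A, and the markers were named after their values were seen. RORA-AS1 was named for its overlap with RORA and had no counts under that name. The genes and lists were chosen with earlier results of these data known. A few list genes are not reported here, and list counts and medians are over the rest. Transcript lengths and overlaps are from GENCODE 44 on GRCh37. Replicates differed by more than sampling noise (chi-square per gene 2.03 to 7.48), and none were merged. Intervals on counts cover counting error only.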

Additional observations from a re-analysis of the deposited data

Results flagged for a closer look

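The difference between the depletions was tested directly, by edgeR's contrast of shARNT against shBMAL1, and it passed for all 6 tested clock output genes. On the log2 scale the difference was 1.86 for NR1D1, 2.89 for NR1D2, -1.95 for RORA, 0.89 for DBP, 1.15 for TEF and -2.13 for NFIL3. In this contrast 81.2% of all tested genes were called. The targeted gene ARNT (-1.77) and EPAS1 (-1.65) were lower in shARNT than in shBMAL1, as was VIM (-2.41), and the neighbours NKIRAS1 (0.61) and SPHK2 (0.19) were higher. The SPHK2 call was lost without shBMAL1 library 1 (0.10, adjusted p = 0.293).

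Of the corepressor, turnover and core clock genes, FBXW7 (0.93), GSK3B (0.74), GPS2 (0.13) and PER3 (0.77) were higher in shARNT than in shBMAL1, and TBL1XR1 (-0.60), BHLHE40 (-1.14), CRY1 (-0.28) and CRY2 (-0.78) were lower. The GPS2 call was lost without shARNT library 1 (0.08, adjusted p = 0.203) and the CRY1 call with scaling by library size alone (-0.09, adjusted p = 0.274). Of the RORE-driven genes, ARNTL was higher (2.25), and NPAS2 (-1.48) and FABP7 (-6.56) were lower, as was RORB (-1.42). The fitted value of FABP7 depends on the prior count. From the counts its ratio was 0.0101 (exact 95% counting interval 0.00121 to 0.0368). Of the D-box outputs, ABCB1 (1.20), ALAS1 (0.62), PDXK (0.96) and POR (0.79) were higher and CES2 (-1.88) was lower. Of the related bZIP factors, CEBPA (2.39), CEBPB (1.80), ATF4 (0.28), ATF5 (0.46) and DDIT3 (0.24) were higher and CEBPD (-0.99) was lower. The DDIT3 call was lost without shBMAL1 library 1 (0.20, adjusted p = 0.123), without shBMAL1 library 3 (0.18, adjusted p = 0.135) and without shARNT library 3 (0.17, adjusted p = 0.171).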

How the results depend on the processing

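Of 288 recomputed values of the 6 tested clock output genes, 273 kept their direction and their side of the threshold. All 48 counts of called genes and all 90 counts per list stayed within 1.5 times the reported count, but their split by direction moved in places. With library size alone, the D-box list in shARNT went from 4 higher and 6 lower to 7 and 5, the core clock list from 1 and 4 to 2 and 3 in shARNT and from 2 and 3 to 3 and 2 in the direct comparison, and the corepressor list in shARNT from 6 and 2 to 6 and 0. With DESeq2 the corepressor list in shBMAL1 went from 6 and 1 to 5 and 0. NR1D1 in shARNT was -0.15 in the fit of 6 libraries, -0.15 with halved counts and 0.094 with library size alone, and -0.20 to -0.094 with 1 library left out. RORA in shARNT was -0.69 with library size alone and -1.34 to -0.65 with 1 library left out. DBP in shBMAL1, which stood at 0.00, turned to -0.0036 with DESeq2, -0.0047 with RLE scaling, -0.0034 in the fit of 6 libraries and -0.0019 with halved counts, and ran from -0.18 to 0.15 with 1 library left out, never passing. ABCB1 in shARNT ran from -0.012 to 0.13 with 1 library left out. NCOR1 in the direct comparison, not called at -0.03, was 0.16 with library size alone and ran from -0.054 to 0.0047 with 1 library left out. Library size alone moved the median of all genes by 0.047 in shBMAL1, 0.237 in shARNT and 0.190 between them, and in shARNT raised the higher share of the calls from 49.6% to 60.5%. Deviations of same-numbered libraries correlated at -0.212 to 0.291, and those of differently numbered libraries at -0.289 to 0.246. No pairing by number was thus seen, though 3 libraries per group cannot show that the cultures were unpaired. With the replicate block 9833, 12684 and 12591 genes were called, against 9852, 12723 and 12630, and no call of the 6 genes changed. Depth limits RORA, DBP, RORB and above all HLF. The causes of these shifts were not tested.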
